A study of Homo sapiens with 16 samples.

Results

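The 8 genes described here set the pace of G1, the stretch of the cell cycle before DNA synthesis. They are the D cyclins CCND1, CCND2 and CCND3, their kinases CDK4 and CDK6, the CDK inhibitors CDKN1B (p27) and CDKN2C (p18), and RB1. They were chosen by name, by matching the Ensembl identifiers of the count files to gene symbols, and all 8 were found among 57500 genes. RNA came from NCI-H929, an established line of human multiple myeloma (a plasma cell cancer), in 16 libraries that form 4 groups of 4. The first experiment set degrader 27, a compound directed at p300, against its solvent DMSO; the dose was 3 nM and the exposure 6 h. The second set cells named p300 KO in the labels, here the knockout, against NTC, its control. The labels give neither how the knockout was made, nor whether it is a clone, nor what NTC stands for. Nor do they tell if replicates came from separate cultures; the tests therefore see just the spread among these libraries, and that may be technical. In such bulk RNA, fewer cells that express a gene and less of its RNA per cell cannot be told apart.

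D cyclins bind CDK4 or CDK6, and the active kinase phosphorylates RB1, which then releases E2F transcription factors to switch on genes of DNA synthesis. CDKN2C belongs to the INK4 family and blocks CDK4 and CDK6 directly, whereas CDKN1B chiefly inhibits the cyclin E and cyclin A kinases and also helps to assemble the D cyclin complexes. Raised expression of a D cyclin is a general feature of myeloma, and loss of CDKN2C is a recurrent event in the disease. p300, encoded by EP300, is a histone acetyltransferase and a coactivator of many genes.

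Library totals lay between 12.6 M and 23.1 M counts (M for mega). Of the libraries, 2 stood apart from the rest. Degrader replicate 2 had 64.9% of its counts on the mitochondrial genome against 5.99% to 6.96% in the other degrader libraries, and knockout replicate 1 had 47.7% against 10.2% to 11.4%. DMSO ranged from 13.4% to 23.5% and NTC from 8.91% to 10.3%. The tests are therefore given with all libraries and without these 2. EP300, the targeted gene, had 87.4 ± 3.82 counts per 1000000 (CPM, scaled by TMM over all 16 libraries; mean ± SD, n = 4) in NTC and 35.4 ± 4.18 in the knockout, an EP300 log2 fold change of -1.25 ± 0.11 (SE; edgeR adjusted p = 2.20e-04), or -1.37 without knockout 1. EP300 RNA was 46.0 ± 4.56 CPM in DMSO and 54.5 ± 1.19 CPM in the 3 degrader libraries other than replicate 2, which had 151 CPM; a degrader acts on the protein, so this RNA does not check the treatment. Of the 8 plasma cell markers, 1 (CD27) was under 1 CPM, and their summed level ran from 1521 CPM in degrader 2 to 3616 CPM among the other degrader libraries. The T cell marker CD3E was at 41.1 CPM on average in DMSO and 20.5 CPM with the degrader, and the summed T cell markers ran from 40.2 to 44.8 CPM and from 13.7 to 27.5 CPM there, while 4 of the 6 were under 1 CPM. TRAC, the other T cell marker that could be tested, was 0.56 higher with the degrader on the log2 scale and did not pass the test (edgeR adjusted p = 0.425). The summed T cell markers ran from 41.3 to 46.1 CPM in NTC and from 28.4 to 33.8 CPM in the knockout, where TRAC fell (-1.13, adjusted p = 1.48e-04) and CD3E was at 0.04 (adjusted p = 0.680). Markers of earlier B cells were called lower in the knockout in 3 of 5 tested, where 10.7% of all genes were. Without knockout 1 it was 5 of 5, beside 21.8%. Their sum ran from 23.1 to 26.6 CPM in NTC and from 14.4 to 23.1 CPM in the knockout. Plasma cell markers were called lower there in 4 of 8 (10.7% of all genes). Without knockout 1, 5 of 8 were lower (21.8%) and 1 higher (19.1%). With the degrader over all libraries, 1 of 7 plasma cell markers tested was called lower (3.12% of all genes). Of 5 markers of earlier B cells, 0 were called. Without degrader 2, 3 of 7 plasma cell markers were higher (18.2% of all genes) and 2 lower (20.3%). Of the 5 earlier B cell markers, 1 was then higher and 1 lower. In the knockout the monocyte marker CSF1R (-0.86), the NK cell marker NKG7 (-0.66) and the epithelial marker CDH1 (-1.48) were also called lower. Over all libraries each was the 1 called of its list, among 1, 3 and 3 tested. GNLY (NK cells, -0.30) and KRT18 (epithelia, 0.24) were not called with all libraries. Without knockout 1, 2 of the 3 NK cell markers tested were called lower, where 21.8% of all genes were. For monocytes it was 1 of 1 and for epithelia 1 of 3. NCAM1 (NK cells) averaged 43.2 CPM in NTC and 42.5 CPM in the knockout. Summed epithelial markers ran from 14.2 to 15.6 CPM in NTC and from 13.8 to 15.3 CPM in the knockout. Summed monocyte markers did not exceed 9.99 CPM in any library, and those of fibroblasts and erythroid cells stayed under 2 CPM. The part of these marker levels in the results for the G1 genes was not tested.

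Per length, CDKN2C was the most abundant of these transcripts in each group and RB1 the least. CDKN2C averaged 76.8 RPKM (CPM per kilobase of the deposited gene length) in DMSO, 82.7 with the degrader, 119 in NTC and 103 in the knockout. Without the mitochondria-rich libraries it was at 88.3 RPKM with the degrader and 111 in the knockout. CCND2 came next in the first experiment, at 39.8 RPKM in DMSO and 28.6 with the degrader (29.8 without degrader 2). In NTC, CDKN1B and CCND2 were close, at 22.0 and 21.4 RPKM, with CCND1 at 17.9. In the knockout CDKN1B was at 20.4 RPKM (22.6 without knockout 1) and CCND2 at 15.5 (15.3). RB1 averaged between 2.19 and 3.65 RPKM in the 4 groups. Both D cyclin kinases lay between these, with CDK4 at 10.9 and CDK6 at 7.09 RPKM in DMSO and at 14.3 and 13.2 RPKM in NTC.

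**Figure D1:**
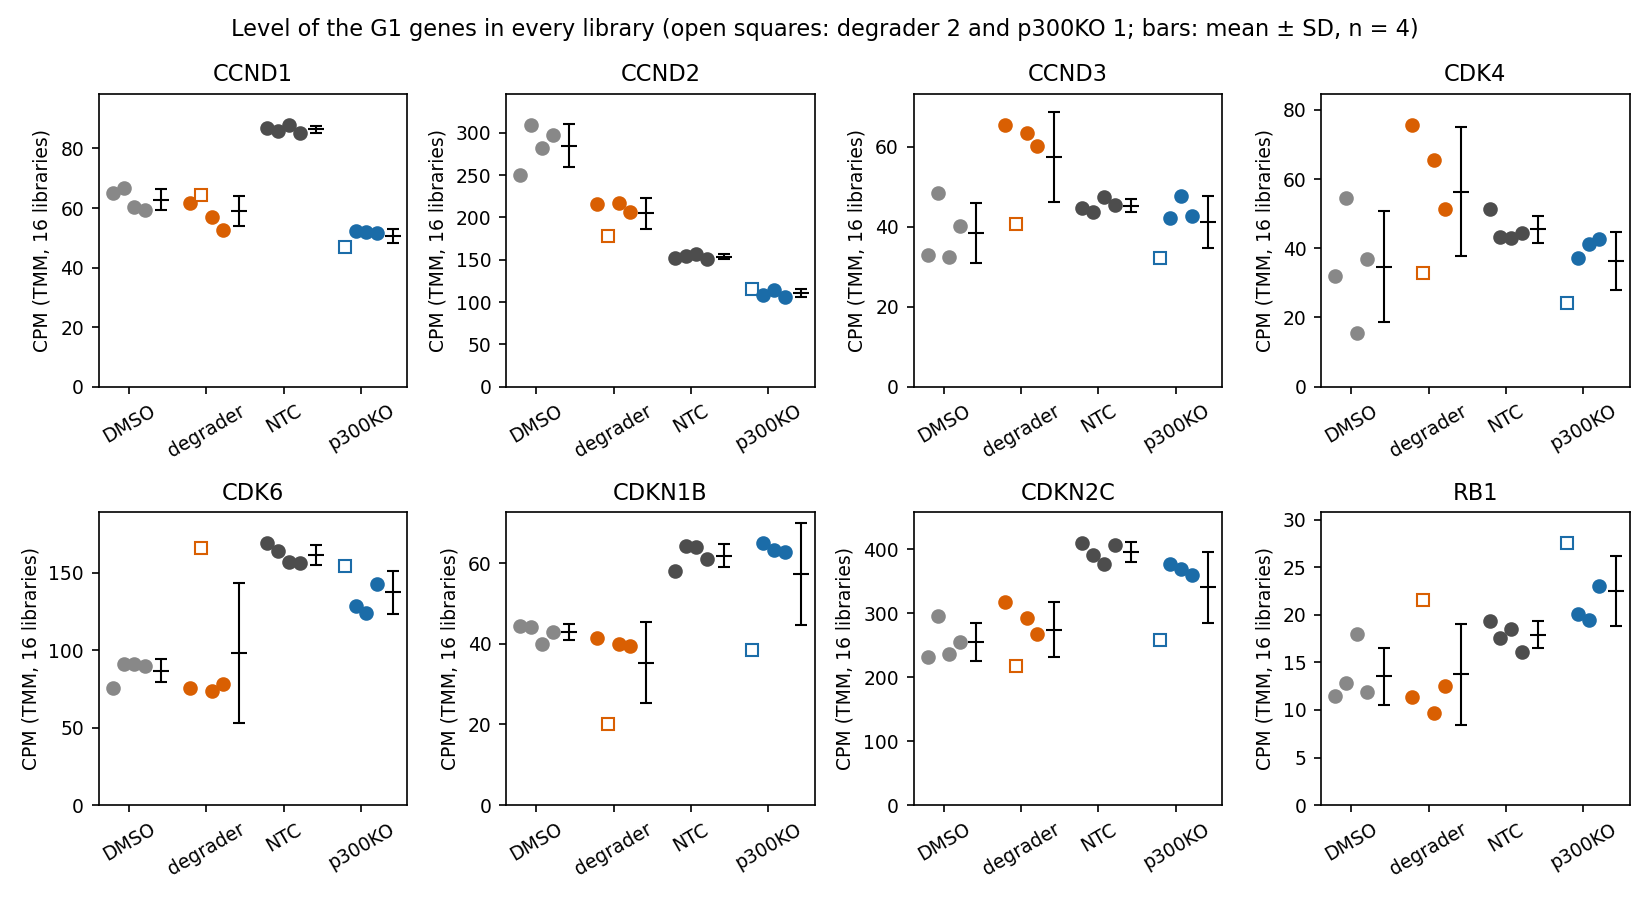
TMM-scaled CPM of each gene (y axis, from 0) in every library of the 4 groups (x axis); open squares are degrader 2 and knockout 1, and the black marks are the mean ± SD of 4 libraries. CCND2 is the gene whose groups are apart in both experiments, and the open squares lie far from their groups for CDK6 (166 CPM) and CDKN1B (20.2 CPM).

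CCND1 encodes cyclin D1, a growth-signal sensor of the G1 kinases. In NTC its level was 86.7, 85.8, 87.9 and 85.1 CPM, and in the knockout 47.0, 52.2, 51.8 and 51.6 CPM. Every knockout library was below every NTC library, and within each group the values were close. CCND1 fell to 0.608 of its NTC level in the knockout, a log2 fold change of -0.72 ± 0.06 (SE; adjusted p = 7.90e-05, edgeR quasi-likelihood test). Without knockout 1 the log2 fold change was -0.72 as well (adjusted p = 1.18e-15). With the degrader, CCND1 was at 61.8, 64.3, 57.1 and 52.7 CPM against 65.1, 66.6, 60.3 and 59.3 CPM in DMSO, and the ranges overlapped. That difference of -0.08 ± 0.11 on the log2 scale did not pass the test (adjusted p = 0.744), nor did -0.14 ± 0.09 without degrader 2 (adjusted p = 0.213).

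CCND2 encodes cyclin D2, and its transcript was the most abundant D cyclin per length in each group. DMSO libraries held 251, 309, 283 and 297 CPM, and degrader libraries 216, 179, 217 and 207 CPM. All 4 degrader libraries lay below all 4 DMSO libraries, degrader 2 being the lowest. The log2 fold change was -0.46 ± 0.12 with an adjusted p of 0.0681, just short of the threshold of 0.05, and DESeq2 on the same libraries called it (adjusted p = 0.0238). Leaving out 1 library other than degrader 2 gave adjusted p between 0.140 and 0.210. Without degrader 2, CCND2 fell to 0.746 of its DMSO level (-0.42 ± 0.09, adjusted p = 0.00241), and it was called in each of 7 further fits that each left out 1 more library. NTC libraries held 152, 154, 157 and 151 CPM and knockout libraries 116, 109, 114 and 105 CPM, so these groups were also apart. CCND2 fell to 0.752 of its NTC level in the knockout (-0.41 ± 0.08, adjusted p = 0.0070), and to 0.720 without knockout 1 (-0.47 ± 0.05, adjusted p = 1.11e-10). When libraries were scaled to total counts alone, the knockout value was -0.60 with an adjusted p of 0.0547.

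CCND3 encodes cyclin D3, a D cyclin prominent in B lineage cells. It stood at 32.8, 48.4, 32.4 and 40.3 CPM in DMSO and at 65.5, 40.8, 63.4 and 60.1 CPM with the degrader. Degrader 2 fell inside the DMSO range, while the other 3 degrader libraries were above it. The log2 fold change over all libraries was 0.59 ± 0.18 and did not pass the test (adjusted p = 0.105). Without degrader 2, CCND3 rose to 1.63 times its DMSO level (0.70 ± 0.12, adjusted p = 5.78e-04). Each of the 7 further leave-one-out fits also called it. Within DMSO, CCND3 ran in reverse of the mitochondrial share, from 48.4 CPM at 13.4% to 32.4 CPM at 23.5%. The 3 degrader libraries left were at 5.99% to 6.96%, below every DMSO library. A fit with that share as a covariate was run over all libraries, but it leans on degrader 2. Beyond that fit, the part of the share in the CCND3 rise was not tested. In the second experiment the groups overlapped, with 44.8, 43.7, 47.4 and 45.3 CPM in NTC and 32.1, 42.2, 47.7 and 42.6 CPM in the knockout. The knockout value was -0.09 ± 0.09 (adjusted p = 0.498), and -0.02 ± 0.06 without knockout 1 (adjusted p = 0.777).

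Shares of the summed RPKM of the 3 D cyclins do not depend on how libraries are scaled to one another. CCND2 made up 64.7%, 66.1%, 68.6% and 68.4% of D cyclin RNA in the DMSO libraries and 55.6%, 55.1%, 57.2% and 57.6% in the degrader libraries. The ranges were apart, and degrader 2 lay with the other degrader libraries. CCND3 took 11.1 ± 1.32% in DMSO and 19.4 ± 2.58% with the degrader (20.7 ± 0.11% without degrader 2, n = 3), while CCND1 took 22.0 ± 2.04% and 24.2 ± 3.52% (22.5 ± 0.95% without degrader 2). In the second experiment the CCND2 share was 45.5 ± 0.31% in NTC and 46.9 ± 3.01% in the knockout (45.5 ± 0.42% without knockout 1, n = 3). There the CCND1 share was 37.9 ± 0.28% in NTC and 31.7 ± 1.00% in the knockout, and the CCND3 share 16.6 ± 0.36% and 21.4 ± 2.59%. Without knockout 1 these knockout shares were 31.9 ± 1.06% and 22.6 ± 0.85% (n = 3). The sum of the 3 transcripts was 59.5 ± 4.77 RPKM in DMSO and 50.7 ± 4.01 with the degrader, with the lowest DMSO library at 54.2 and the highest degrader library at 54.3 (52.5 ± 2.13 without degrader 2, n = 3). It was 47.1 ± 0.81 RPKM in NTC and 33.1 ± 1.45 in the knockout (33.6 ± 1.14 without knockout 1, n = 3), where the highest library reached 34.9 and the lowest NTC library 46.6.

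**Figure D2:**
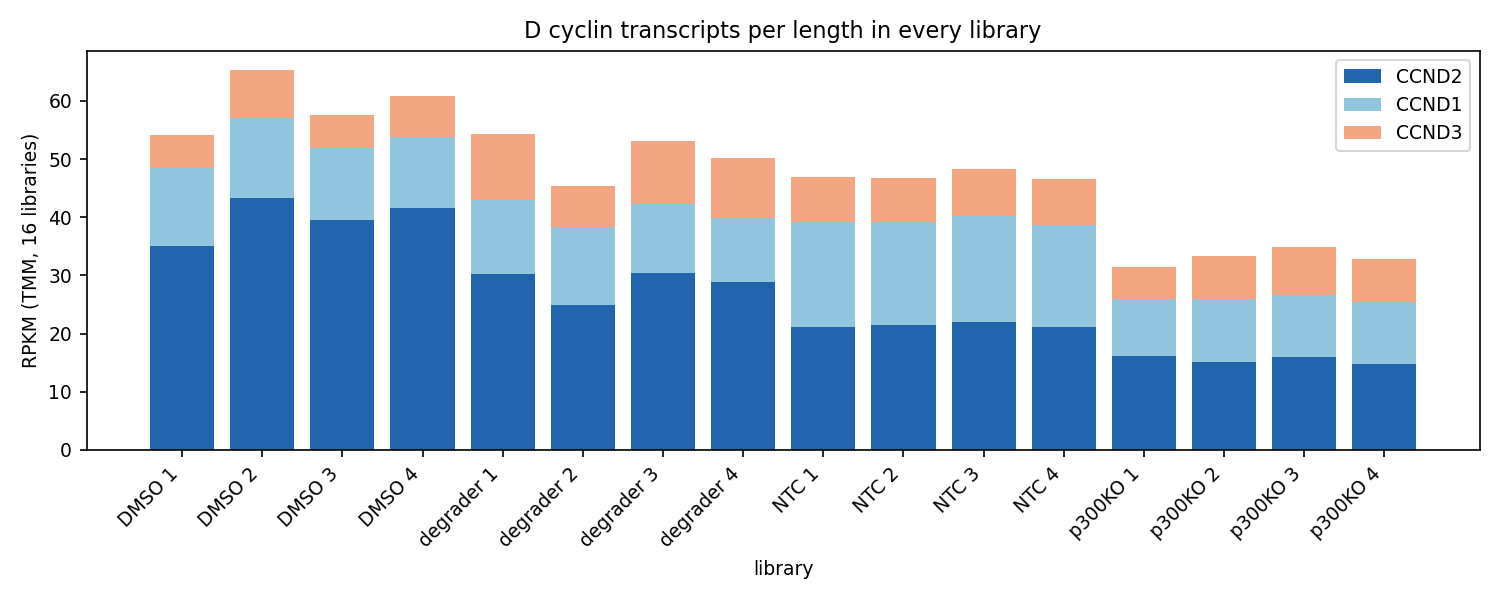
Stacked RPKM of CCND2, CCND1 and CCND3 (y axis, from 0) in each of the 16 libraries (x axis). CCND2 is the largest block in each library, its share is lower with the degrader (55.1% to 57.6%) than in DMSO (64.7% to 68.6%), and the whole bar is shorter in the knockout than in NTC.

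CDK4 carries 3 copies of CACGTG, the E-box letters that MYC binds together with MAX, in its RefSeq promoter window (GRCh38.p14, 250 bases before to 50 after the start). These stretches are printed because CDK4 is a textbook MYC target and MYC is among the upstream factors measured here. Capitals mark the motif, which reads the same on both strands, and each line gives the minus strand from 5′ to 3′. The copies begin 216, 196 and 101 bases before the start, and the first 2 stretches overlap.
CDK4, chr12:57752511-57752536: gtcaagcggtCACGTGtgatagcaac
CDK4, chr12:57752491-57752516: agcaacagatCACGTGgctgccatcg
CDK4, chr12:57752396-57752421: gggtggcggtCACGTGcccagaacgt
Of all 35116 windows in the table, 7.26% hold the motif and 33 (0.094%) hold it 3 times or more. Of the genes studied here, 6 have windows, 11 in all; besides CDK4, the motif occurs once in each of 2 CDKN2C windows and once in a CDK6 window. A match is only a match of letters.

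CDK4 is the catalytic partner of the D cyclins whose level varied most within DMSO, at 31.9, 54.5, 15.5 and 36.9 CPM. Degrader libraries held 75.6, 32.8, 65.5 and 51.4 CPM, and the groups overlapped with and without degrader 2. The log2 fold change was 0.72 ± 0.36 (adjusted p = 0.309). Without degrader 2, CDK4 rose to 1.84 times its DMSO level (0.88 ± 0.26, edgeR adjusted p = 0.0169), but the call was lost when DMSO 1 or degrader 1 was also left out (adjusted p up to 0.0651), and DESeq2 did not make it (adjusted p = 0.109). Within DMSO the order of CDK4, like that of CCND3, was the reverse of the order of the mitochondrial share. The library with 23.5% on the mitochondrial genome had 15.5 CPM of CDK4, and the library with 13.4% had 54.5 CPM. With that share as a covariate over all 8 libraries the CDK4 value was 0.43 (edgeR adjusted p = 0.120). That fit leans on degrader 2, since the other degrader libraries were below every DMSO library in this share. In NTC, CDK4 was at 51.3, 43.2, 43.0 and 44.4 CPM, and in the knockout at 24.2, 37.3, 41.2 and 42.5 CPM. The highest knockout library was just below the lowest NTC library, and the log2 fold change was -0.28 ± 0.13 (adjusted p = 0.179). Without knockout 1 it was -0.16 ± 0.06 (adjusted p = 0.0380), a call that was lost in 3 of the 7 fits that left out 1 more library, those without NTC 1, knockout 2 or knockout 3. CDK4 shares 1369 exon bases, 43.2% of its exons, with TSPAN31 on the opposite strand, whose counts ran from 60 to 792 per library. Whether the counting used strand is not stated, so reads of the pair may not be separated.

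CDK6, the other D cyclin kinase, was measured at 75.7, 91.2, 91.0 and 89.8 CPM in DMSO and at 75.5, 166, 73.5 and 78.6 CPM with the degrader. Degrader 2 was more than any DMSO library, and the others were near the lowest DMSO library. The CDK6 value changed sign with that library, from 0.19 ± 0.28 on the log2 scale (adjusted p = 0.741) to -0.20 ± 0.09 without it (adjusted p = 0.0827); neither passed the test. With the mitochondrial share as a covariate over all 8 libraries it was 0.30 and was called (adjusted p = 0.0130). In this share the degrader libraries other than degrader 2 (5.99% to 6.96%) were below all DMSO libraries (13.4% to 23.5%). That fit therefore leans on degrader 2. NTC held 169, 165, 157 and 156 CPM and the knockout 154, 129, 124 and 143 CPM, the highest knockout value being that of knockout 1. The 4 knockout libraries were all lower, by a log2 fold change of -0.17 ± 0.10 that did not pass the test (adjusted p = 0.270). Without knockout 1, CDK6 fell to 0.824 of its NTC level (-0.28 ± 0.05, adjusted p = 2.82e-05), and all 7 further leave-one-out fits called it.

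CDK6 made up 41.8 ± 13.0% of the summed RPKM of the 2 kinases in DMSO and 32.0 ± 16.8% with the degrader. The single libraries were 38.0%, 30.2%, 60.4% and 38.6% in DMSO and 20.5%, 56.7%, 22.5% and 28.3% with the degrader. Without degrader 2 the treated mean was 23.8 ± 4.05% (n = 3), below every DMSO library. NTC stood at 47.9 ± 1.52% and the knockout at 49.9 ± 8.36%, or at 45.8 ± 1.80% (n = 3) without knockout 1, which had 62.3%, so that the direction turned with that library. In both experiments the mitochondria-rich library had the highest CDK6 share of its group.

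**Figure D3:**
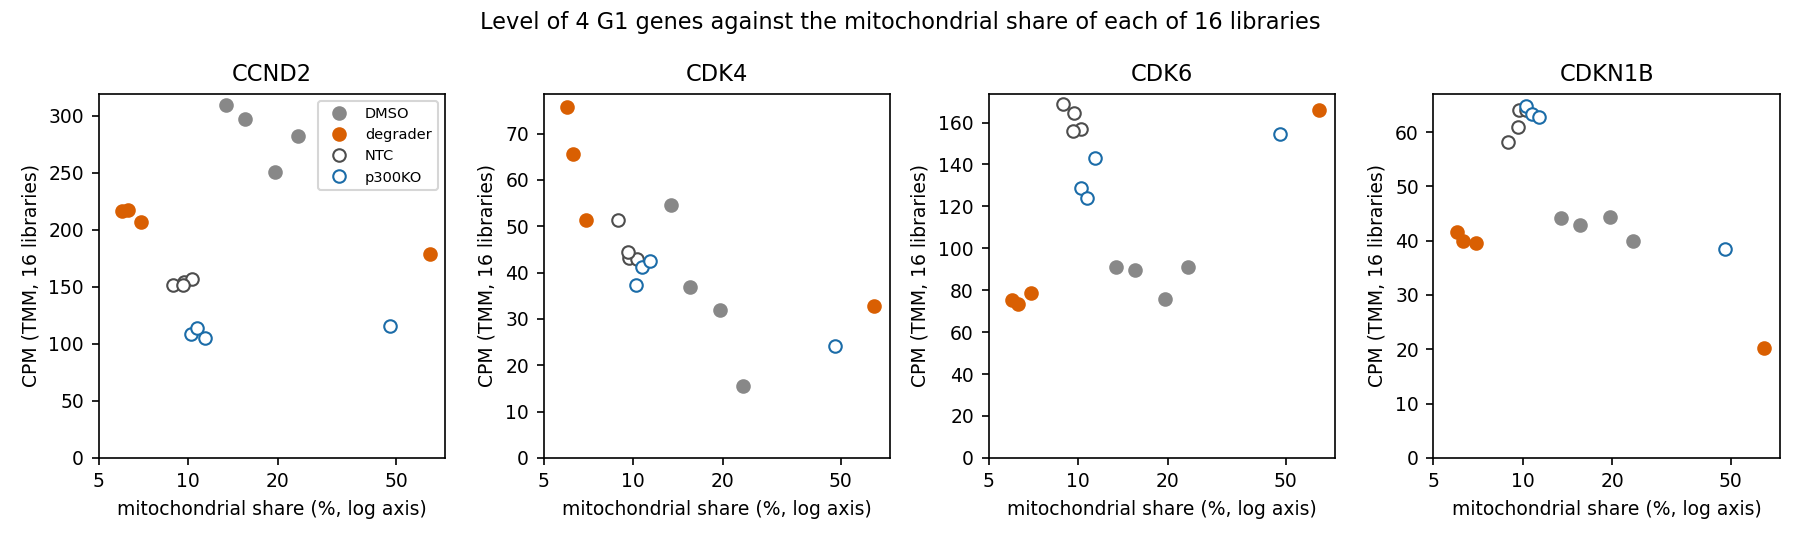
TMM-scaled CPM of CCND2, CDK4, CDK6 and CDKN1B (y axes, from 0) against the mitochondrial share of counts (x axis, log scale) in the 16 libraries; each point is a library, filled in the first experiment and open in the second, coloured by group. The points at 47.7% and 64.9% are knockout 1 and degrader 2: low for CDK4 and CDKN1B, high for CDK6, and near their groups for CCND2.

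CDKN1B encodes p27, which holds cyclin E and cyclin A kinases inactive in quiescent cells. DMSO libraries held 44.3, 44.1, 40.0 and 43.0 CPM and degrader libraries 41.5, 20.2, 40.0 and 39.5 CPM. Apart from degrader 2, the values with and without the degrader overlapped. The CDKN1B difference was -0.26 ± 0.20 on the log2 scale (adjusted p = 0.502), or -0.09 ± 0.08 when degrader 2 was left out (adjusted p = 0.381). With the mitochondrial share as a covariate over all 8 libraries, the CDKN1B value was -0.49 and was called (adjusted p = 2.18e-04). As for CDK6, that fit leans on degrader 2. NTC had 58.1, 64.1, 64.1 and 61.0 CPM and the knockout 38.4, 64.9, 63.3 and 62.8 CPM. Here too only the mitochondria-rich library stood away, and the log2 fold change was -0.06 ± 0.12 (adjusted p = 0.752) with it and 0.05 ± 0.05 (adjusted p = 0.435) without it.

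CDKN2C encodes p18, an INK4 inhibitor that accumulates as plasma cells stop dividing. Its level was 231, 296, 237 and 255 CPM in DMSO and 318, 218, 293 and 268 CPM with the degrader, and the groups overlapped. The CDKN2C difference was 0.12 ± 0.15 on the log2 scale (adjusted p = 0.692), or 0.20 ± 0.10 when degrader 2 was left out (adjusted p = 0.136). NTC libraries had 409, 391, 376 and 406 CPM, and knockout libraries 258, 377, 369 and 360 CPM. Knockout 1 was far below the others, and knockout 2 reached into the NTC range. The value was -0.17 ± 0.09 (adjusted p = 0.229), and -0.09 ± 0.05 without knockout 1 (adjusted p = 0.137). CDKN2C made up between 81.5% and 85.0% of the summed RPKM of the 2 inhibitors in DMSO and between 85.2% and 90.1% with the degrader, the top value being that of degrader 2.

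RB1 encodes the protein that the D cyclin kinases phosphorylate, and its counts were few, from 116 to 556 per library. It was at 11.5, 12.8, 18.0 and 11.9 CPM in DMSO and at 11.3, 21.5, 9.63 and 12.5 CPM with the degrader. The groups overlapped, and the log2 fold change was 0.01 ± 0.27 (adjusted p = 0.991) with all libraries and -0.28 ± 0.15 (adjusted p = 0.158) without degrader 2. NTC held 19.4, 17.6, 18.5 and 16.1 CPM and the knockout 27.5, 20.1, 19.4 and 23.0 CPM. The lowest knockout library was level with the highest NTC library to 3 digits, at 19.4 CPM, and the log2 fold change was 0.39 ± 0.14 (adjusted p = 0.0909). Without knockout 1, RB1 rose to 1.18 times its NTC level (0.23 ± 0.08, adjusted p = 0.0116), and the call was lost when NTC 4 or knockout 4 was also left out (adjusted p up to 0.131).

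Counted together, 0 of the 8 genes were called with the degrader over all libraries by edgeR, 2 had an unadjusted p under 0.05, and DESeq2 called 1, CCND2. Over all genes tested, edgeR called 4.76% and DESeq2 7.85%. Without degrader 2, 3 of 8 were called (38.5% of all genes): CCND3 and CDK4 higher, where 18.2% of all genes were, and CCND2 lower, where 20.3% were. In the knockout, 2 of 8 were called (17.0% of all genes), both lower, against 10.7% of all genes called lower. Without knockout 1, 5 of 8 were called (40.9% of all genes), 4 lower (21.8%) and RB1 higher (19.1%). The median log2 fold change of the 8 was 0.06 with the degrader and -0.17 in the knockout, against 0.05 and 0.02 over all genes tested. Without the 2 mitochondria-rich libraries these medians were -0.12 and -0.12, against -0.04 and 0.00 over all genes.

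Libraries of treated and control groups did not overlap for 1 of 8 genes with the degrader, CCND2, lower there as 9.20% of all genes were. Without degrader 2, CCND2 was apart on the lower side (21.4% of all genes) and CCND3 on the higher side (20.5%). In the knockout, 4 genes were apart on the lower side (17.7% of all genes, 22.1% without knockout 1), namely CCND1, CCND2, CDK4 and CDK6, and RB1 on the higher side (8.94%, 18.1%). All 8 genes passed the filter on low counts in each fit.

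**Figure D4:**
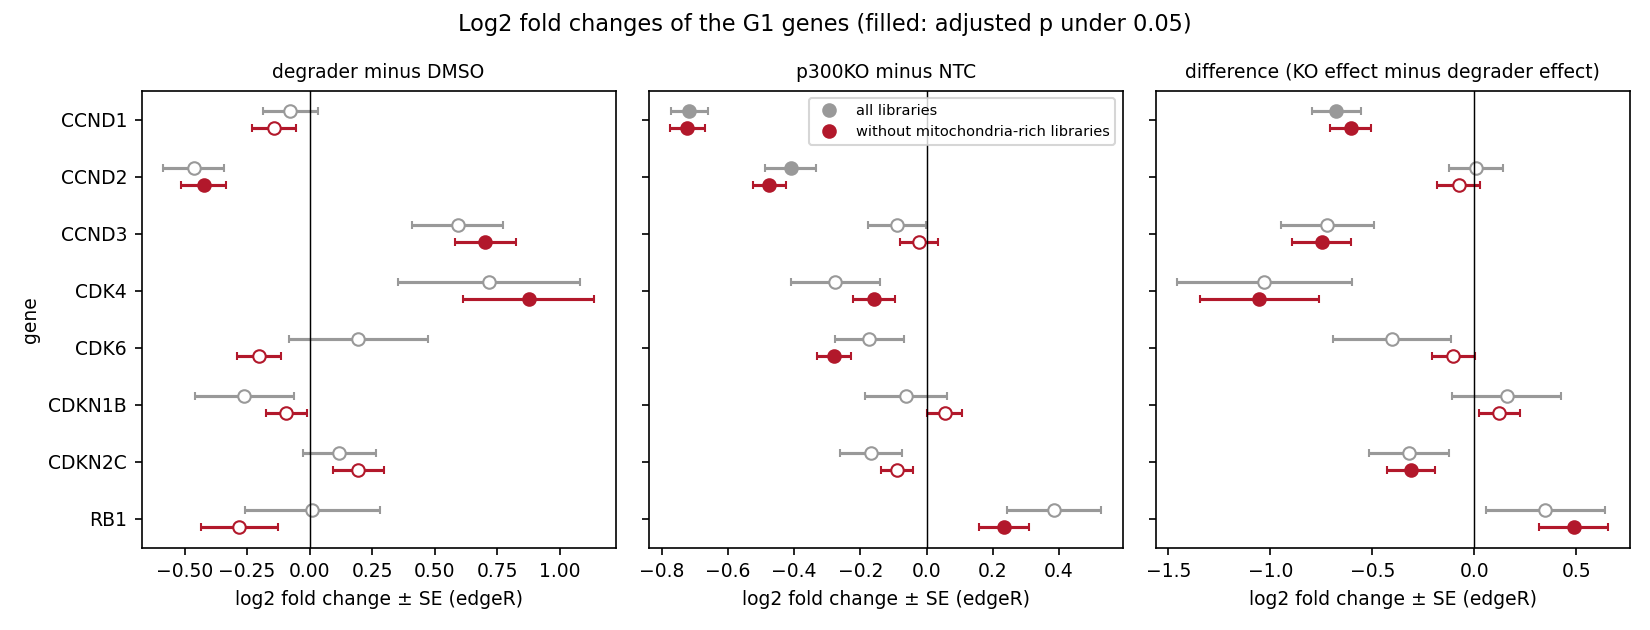
Log2 fold changes (x axis) ± SE of the 8 genes (y axis) with the degrader, in the knockout, and for the difference between both effects; grey is all libraries, red is without the mitochondria-rich libraries, and filled points have an edgeR adjusted p under 0.05. CCND1 (-0.72) and CCND2 (-0.41) are filled over all libraries in the knockout, none is with the degrader, and CDK6 changes sides with degrader 2.

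The knockout effect and the degrader effect were compared in 1 fit over 16 libraries. CCND1 was the 1 of 8 genes called there (6.58% of all genes called, 3.76% lower), its knockout effect being lower than its degrader effect by -0.68 ± 0.12 on the log2 scale (adjusted p = 0.00297). Without the 2 mitochondria-rich libraries the CCND1 difference was -0.61 ± 0.10 (adjusted p = 6.86e-05). With total count scaling over all libraries it was -0.65 and did not pass the test (adjusted p = 0.456), nor did the value of -0.67 with no filter on low counts (adjusted p = 0.0610). The CCND2 effects were -0.46 with the degrader and -0.41 in the knockout, and their difference was 0.01 ± 0.13 (adjusted p = 0.987), or -0.08 ± 0.10 without the 2 libraries (adjusted p = 0.610). For CCND3 the difference was -0.72 ± 0.23 (adjusted p = 0.0716) and passed the test without the 2 libraries (-0.75 ± 0.14, adjusted p = 3.36e-04). The CDK4 difference was -1.03 ± 0.43 (adjusted p = 0.178) and -1.05 ± 0.29 without the 2 libraries (adjusted p = 0.00743), although with the mitochondrial share as a covariate it was -0.50 (adjusted p = 0.137). That covariate fit leans on the 2 mitochondria-rich libraries. In all, 5 of 8 were called without the 2 libraries, when 32.0% of all genes were: CCND1, CCND3, CDK4 and CDKN2C lower (16.7% of all genes) and RB1 higher (15.3%). The CDKN2C difference there was -0.31 ± 0.12 (adjusted p = 0.0463) and that of RB1 0.49 ± 0.17 (adjusted p = 0.0306). The experiments also differ in the means used against p300 and in their controls, and these cannot be told apart.

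The 2 control groups were compared as well, in a contrast where 48.1% of all genes were called. NTC was higher than DMSO for CCND1 (log2 difference 0.46 ± 0.08, adjusted p = 3.46e-04), CDK6 (0.89 ± 0.21, adjusted p = 0.00224), CDKN2C (0.64 ± 0.14, adjusted p = 0.00145) and CDKN1B (0.53 ± 0.19, adjusted p = 0.0305). It was lower for CCND2 (-0.89 ± 0.09, adjusted p = 1.76e-06). The 3 others did not pass the test: CCND3 at 0.23 ± 0.16 (adjusted p = 0.238), CDK4 at 0.39 ± 0.30 (adjusted p = 0.300) and RB1 at 0.40 ± 0.20 (adjusted p = 0.115). That makes 5 of 8 called, a share near that of all genes, 4 higher (26.7% of all genes) and 1 lower (21.4%); without the mitochondria-rich libraries 7 of 8 were called beside 69.8%. Libraries were apart for those same 5 genes, on the higher side in 4 (31.9% of all genes) and on the lower in 1 (28.9%). Control and experiment cannot be told apart in this comparison.

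In order of mean CPM over all libraries, CCND1 ran NTC, DMSO, degrader, knockout, and DMSO and degrader overlapped. CCND2 ran DMSO, degrader, NTC, knockout, with no overlap between neighbours. CDK6 ran NTC, knockout, degrader, DMSO, and without the 2 libraries NTC, knockout, DMSO, degrader, with overlap only between the last pair. CDKN2C and CDKN1B were higher in both groups of the second experiment than in those of the first once the 2 libraries were left out, and within each experiment their groups overlapped. For CCND3 and RB1 over all libraries most neighbours in the order overlapped, the exception being RB1 in the knockout above NTC.

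Other G1 genes were followed in lists given here with their counts, with all libraries and then without the mitochondria-rich one. Among 9 other G1 cyclins, kinases and activators, 0 were called with the degrader over all libraries (1 had an unadjusted p under 0.05), and 4 higher without degrader 2 (18.2% of all genes), namely CCNA2 (0.62), CCNE2 (0.47), CDK2 (0.72) and CDK7 (0.25). In the knockout CCNE1, which encodes cyclin E1, the cyclin that acts after the D cyclins, fell (-0.37 ± 0.10, adjusted p = 0.0288). Without knockout 1, CCNA2 (0.32), CCNH (0.21) and CDK2 (0.46) were higher (3 of 9, beside 19.1% of all genes), and CCNE1 (-0.31) and CDK7 (-0.25) lower (2 of 9, beside 21.8%). The list's median log2 fold change was 0.15 with the degrader and 0.12 in the knockout (all genes 0.05 and 0.02), and 0.19 and 0.13 without the mitochondria-rich libraries (all genes -0.04 and 0.00).

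Of 5 other CDK inhibitors, 0 were called with the degrader over all libraries (3 had an unadjusted p under 0.05). Without degrader 2, CDKN2D (p19) rose by 0.87 ± 0.12 on the log2 scale, 1 of 5 beside 18.2% of all genes. In the same fit CDKN1C (p57) fell by 1.48 ± 0.25, CDKN1A (p21) by 0.38 ± 0.10 and CDKN2A (p16) by 0.27 ± 0.09. These 3 of 5 lower stand beside 20.3% of all genes. CDKN1C was scarce here, at 2.60 ± 0.46 CPM in DMSO and 0.93 ± 0.16 CPM in the degrader libraries other than degrader 2. In the knockout 2 of 5 fell over all libraries, beside 10.7% of all genes. These were CDKN1C (-1.31 ± 0.14, adjusted p = 4.56e-04) and CDKN2B (p15, -0.85 ± 0.16, adjusted p = 0.00721). Both were scarce: CDKN1C was at 6.99 ± 0.47 CPM in NTC and 2.74 ± 0.33 in the knockout, and CDKN2B at 6.00 ± 0.77 and 3.24 ± 0.47. Without knockout 1 both were still called lower (21.8% of all genes) and CDKN1A was higher (0.18, beside 19.1% of all genes). The median of these 5 was -0.45 with the degrader and -0.14 in the knockout (all genes 0.05 and 0.02). Without the mitochondria-rich libraries it was -0.38 and -0.09 (all genes -0.04 and 0.00).

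RB1 has 2 relatives, RBL1 (p107) and RBL2 (p130), listed with the E2F and DP transcription factors, 12 genes in all. With the degrader 0 were called over all libraries (3 had an unadjusted p under 0.05). In the knockout RBL1 (0.53 ± 0.07, adjusted p = 0.00130) and TFDP2 (0.50 ± 0.08, adjusted p = 0.00465) rose, 2 of 12 where 6.23% of all genes were called higher. Without degrader 2, 5 were higher (E2F1 0.27, E2F6 0.28, E2F7 0.54, E2F8 0.74 and TFDP1 0.55), beside 18.2% of all genes, and 2 lower (E2F3 -0.48 and E2F5 -0.60), beside 20.3%. Without knockout 1, 6 of 12 were higher, beside 19.1% of all genes, among them RBL1 (0.56), TFDP2 (0.45), E2F8 (0.38) and E2F1 (0.26), and E2F3 was lower (-0.24). The median log2 fold change was 0.32 with the degrader and 0.14 in the knockout, and 0.15 and 0.20 without the mitochondria-rich libraries.

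Genes of DNA synthesis that E2F factors switch on, 16 in the list, had values above 0 in 16 of 16 cases in both experiments over all libraries. The share of all genes above 0 was not counted, and few of the 16 passed the test. With the degrader 0 were called (5 at an unadjusted p under 0.05). In the knockout CDC6 (0.47 ± 0.10, adjusted p = 0.0110) and CDC45 (0.24 ± 0.07, adjusted p = 0.0491) were higher, 2 of 16 beside 6.23% of all genes. Without degrader 2, 12 of 16 rose and 0 fell, where 18.2% of all genes rose and 20.3% fell, led by RRM2 (0.82 ± 0.08), RRM1 (0.73 ± 0.12), TYMS (0.81 ± 0.14) and MCM2 (0.80 ± 0.14). RRM1 and RRM2 are the subunits of ribonucleotide reductase, TYMS makes thymidylate and MCM2 is part of the replicative helicase. Without knockout 1, 12 of 16 rose and 0 fell (all genes 19.1% and 21.8%), with the smallest p for CDC6 (0.37 ± 0.06), RRM1 (0.31 ± 0.05), TYMS (0.27 ± 0.05) and MCM5 (0.23 ± 0.05). The medians were 0.34 with the degrader and 0.11 in the knockout over all libraries (all genes 0.05 and 0.02). Without the mitochondria-rich ones they were 0.35 and 0.20 (all genes -0.04 and 0.00).

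Among 12 genes that turn over D cyclins, cyclin E and p27, 0 were called with the degrader over all libraries (1 at an unadjusted p under 0.05), and RBX1, the RING subunit of cullin ligases, fell in the knockout (-0.60 ± 0.11, adjusted p = 0.0070). Without degrader 2, CKS1B (0.75), CUL1 (0.26) and SKP1 (0.85) were higher, and CUL4B (-0.31) and FBXW7 (-0.59), the receptor that marks cyclin E for destruction, lower; these 3 and 2 of 12 stand beside 18.2% and 20.3% of all genes. Without knockout 1, AMBRA1 (0.22), CKS1B (0.23), CUL4B (0.19) and SKP1 (0.22) were higher, and CUL1 (-0.26), FBXW7 (-0.28) and RBX1 (-0.68) lower, 4 and 3 of 12 beside 19.1% and 21.8% of all genes. AMBRA1 is the ligase receptor of the D cyclins themselves. The median was -0.01 with the degrader and 0.05 in the knockout, and 0.01 and 0.00 without the mitochondria-rich libraries.

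Of 8 transcription factors placed upstream of the D cyclins or CDK inhibitors, 7 were tested, since STAT5A had too few counts. IRF4, a survival factor of myeloma cells, fell with the degrader (-0.88 ± 0.12, adjusted p = 0.00475) and in the knockout (-0.45 ± 0.06, adjusted p = 0.00202). MAF, which activates CCND2 in myeloma, fell with the degrader (-0.69 ± 0.11, adjusted p = 0.0127) and in the knockout (-0.70 ± 0.09, adjusted p = 0.00141). These were the 2 of 7 called with the degrader, both lower, where 3.12% of all genes were. In the knockout MYC fell as well (-0.93 ± 0.10, edgeR adjusted p = 5.06e-04), and 4 of 7 were called lower there, where 10.7% of all genes were. Without degrader 2, MYC (-0.77), FOXO1 (-1.25) and FOXO3 (-1.08) were also lower. In that fit 5 of 7 were lower, beside 20.3% of all genes, and 1 of 7 was higher, beside 18.2%. Without knockout 1, 6 of 7 were lower (21.8% of all genes), among them MYC (-0.85), MAF (-0.64), IRF4 (-0.43), FOXO1 and FOXO3. STAT5B (0.20) was higher, as 19.1% of all genes were. The list's median was -0.64 with the degrader and -0.45 in the knockout, and -0.77 and -0.43 without the mitochondria-rich libraries.

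The genes whose pattern was most like that of each of the 8 were ranked by Pearson r of log2 CPM over the 14 libraries other than degrader 2 and knockout 1, among 9057 genes with a symbol and an average log2 CPM of at least 3. The values are descriptive, since libraries of a group share its condition. MAN1B1-DT (r = 0.982), CRYBB1 (0.981) and KLF16 (0.963) were nearest to CCND1, and SFXN4 (0.991), FBRSL1 (0.985) and LARP1 (0.982) to CCND2. For CCND3 the nearest were STIP1 (0.972), UBE2D2 (0.961) and DNAJA1 (0.959), and for CDK4 HMGA1 (0.986), AARS1 (0.984) and ZNF622 (0.982). CDK6 was closest to HS3ST3B1 (0.989), RAB30 (0.988) and MARCKS (0.986). CDKN1B was closest to TP53INP2 (0.994), DNMT3A (0.992) and SLC37A2 (0.990), and CDKN2C to SURF4 (0.989), MYD88 (0.985) and EZR (0.982). The nearest to RB1 were WSB2 (0.967), VPS13C (0.963) and WNK1 (0.962).

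In the deposited coordinates (GRCh38), CCND1 lies at chr11:69641087-69654474 on the plus strand, CCND2 at chr12:4273772-4305350 (plus) and CCND3 at chr6:41934933-42050357 (minus). CDK4 lies at chr12:57747727-57756013 (minus) and CDK6 at chr7:92604921-92836594 (minus). CDKN1B is at chr12:12715058-12722371 (plus), CDKN2C at chr1:50960745-50974633 (plus) and RB1 at chr13:48303751-48481986 (plus). Each is protein coding in GENCODE 29. CCND1 shares 497 exon bases, 10.3% of its exons, with LTO1 on the opposite strand (50 to 461 counts per library), which bears on its value as TSPAN31 does on CDK4. CCND2, CCND3 and CDK6 share at most 126 exon bases with neighbours of at most 12 counts.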

How the data were processed

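The deposited unit is whole-number counts per gene, 1 table per library, each with the exon length of the gene in bases (the authors' Length column, which is another kind of value and served only for RPKM). The tools named per the submitters' processing notes are STAR 2.5.2b on GRCh38, Trimmomatic 0.36, DESeq2 1.16.1 and, from Subread 1.5.2, featureCounts; which strand was counted and which annotation release are not given here. Of 57500 genes, 40907 had a symbol.

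The deposited counts went into edgeR 4.0.16 (R 4.3.3). Every comparison of 2 groups was fitted on its own 8 libraries, with filterByExpr, TMM scaling, the quasi-likelihood test and Benjamini-Hochberg adjustment over all genes tested (called at an adjusted p under 0.05). The difference of effects and NTC against DMSO were contrasts in a fit on 16 libraries. SE is the log2 fold change divided by the square root of F. DESeq2 1.42.0, other scalings, no filter, a replicate block, leave-one-out fits and a covariate were alternatives; the covariate, total count scaling and DESeq2 without the mitochondria-rich libraries, and leave-one-out fits from the libraries left, were chosen after seeing the data. The steps were tested on simulated counts, drawn from NTC means with the same spread for every gene. They held no mitochondria-rich library, so they do not show how the tests behave with such libraries. No pair of libraries was identical. A count of 0 allows up to 3 counts, 0.130 to 0.238 CPM by library, for counting error only.

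The genes, the lists and the rule for named genes were chosen with earlier results of these data known. The rule names the 8 genes, EP300, every called list member where 5 or fewer are called in a direction (otherwise up to 4 with the smallest p) and the 3 genes nearest in pattern. Outside this rule, CD27, CD3E, TRAC, CSF1R, NKG7, GNLY, NCAM1, CDH1, KRT18, TSPAN31 and LTO1 were picked once their values had been seen. The values of 1 gene of the transcription factor list are not reported here.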

Additional observations from a re-analysis of the deposited data

Results flagged for a closer look

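Within groups of 4 libraries, 6 of the 32 combinations of gene and group held a library whose gap to its nearest neighbour took up nearly the whole range of the group. By chance about 1 in 20 independent combinations would. The 32 share the same 16 libraries, so the 6 cannot be set against that rate. In knockout 1, CCND1 (47.0 CPM), CDKN1B (38.4 CPM) and CDKN2C (258 CPM) were the lowest of their group. In degrader 2, CDK6 (166 CPM) was the highest and CDKN1B (20.2 CPM) the lowest. These are the 2 libraries with 47.7% and 64.9% of counts on the mitochondrial genome; the part of that share in these levels was not tested. CDK6 in DMSO 1 (75.7 CPM) was the lowest of its group, and that library had 19.7% on the mitochondrial genome.

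The effects on CCND1 differed between the experiments, with a knockout effect below the degrader effect by a log2 value of -0.68 (edgeR adjusted p = 0.00297). The call was lost with total count scaling (-0.65, adjusted p = 0.456) and with no filter on low counts (-0.67, adjusted p = 0.0610).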

How the results depend on the processing

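With the degrader, edgeR called 755 genes and 0 of the 8. Genes called (and, where they moved, how many of the 8) were 164 with total count scaling, 394 with no filter, 1535 (1 of 8) with DESeq2, 2294 (2 of 8) in the fit on all 16 libraries, 5807 (4 of 8) with the mitochondrial share in the model, 6683 (4 of 8) with total counts without degrader 2, and 5672 (2 of 8) with DESeq2 without it. The knockout (2944 and 2 of 8) gave 1265 (1 of 8) with total counts, 1484 in the 16-library fit, 6983 (4 of 8) with the covariate, and 7124 (5 of 8) and 5769 (4 of 8) with total counts and DESeq2 without knockout 1. The difference (1189 and 1 of 8) gave 319 (0 of 8) with total counts, 585 (0 of 8) with no filter, 1921 (2 of 8) with DESeq2, 4948 (4 of 8) with the covariate, and 5901 (5 of 8) without the 2 mitochondria-rich libraries. Leave-one-out fits ranged from 197 to 6745 genes and 0 to 4 of the 8 with the degrader, 1542 to 7246 and 2 to 5 in the knockout, and 766 to 4611 and 1 to 4 for the difference. The causes were not tested. Total count scaling moved the median of all genes by -0.14 with the degrader, -0.16 in the knockout and 0.24 between controls.

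Values that changed sign had not passed the test over all libraries: CDK6 with the degrader (-0.13 with total counts, -0.092 and -0.15 with total counts and DESeq2 without degrader 2, -0.27 to 0.32 in leave-one-out fits); RB1 with the degrader (-0.24 with total counts, -0.021 in the 16-library fit, -0.17 and -0.22 without degrader 2, -0.35 to 0.19); CDKN1B with the degrader (0.018 with total counts without degrader 2) and in the knockout (0.094 with the covariate, 0.046 and 0.066 without knockout 1, -0.11 to 0.072); CCND3 in the knockout (-0.15 to 0.010); and the differences of CCND2 (-0.020 with RLE, -0.028 with total counts, -0.035 with DESeq2, -0.077 without the 2 libraries, -0.060 to 0.069) and CDKN1B (-0.025 to 0.31).

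Deviations of same-numbered replicates from their groups had r from -0.350 to 0.084 with the degrader and from -0.168 to 0.030 in the knockout. The mitochondria-rich libraries, far from the rest of their groups, were included, and the check was not repeated without them. It therefore cannot decide whether the numbers pair the libraries. With a replicate block, 24 genes were called with the degrader and 1304 in the knockout, CCND1 (adjusted p = 0.00577) and CCND2 (adjusted p = 0.0403) among them; RB1 with the degrader was then -0.012.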
